A study of Mus musculus with 2 samples.

Results

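The miR-103 and miR-107 family, miR-33 and miR-802 were examined in extracellular vesicles (EVs) of serum, which are small membrane-bound particles shed by cells and carry RNA. Members were chosen by name, and the 9 mature miRNAs of these 5 hairpins were all found among the 1847 miRNAs listed for each library. iFIRKO mice carry Adipoq-CreERT2, a tamoxifen-inducible Cre recombinase driven by the adiponectin promoter, together with Insr flox/flox, so that the insulin receptor is deleted in adipocytes after tamoxifen. The labels give the genotype of the control group as WT, but in the methods of the study these mice carry floxed Insr alleles and lack Cre. Mice of both groups were males aged 7 weeks, all received tamoxifen at 100 mg/kg on 5 consecutive days, and serum was taken on day 3 after the last dose. Each group had 1 library, prepared from serum pooled over several mice, so no spread between animals could be estimated and no test between genotypes was possible. No miRNA reports the deletion of Insr or marks an EV, so neither could be used to check the labels. The labels are in doubt, because miR-486a-3p, miR-144-3p and also miR-451a, which the study followed up as raised in iFIRKO serum EVs, were lower in the library so labelled. The study also reports that most EV miRNAs were decreased in iFIRKO mice. On the deposited scale the opposite was found in the library so labelled. There, 1225 of the 1847 miRNAs were over 1.5-fold higher and 56 over 1.5-fold lower. With TMM, another scaling between libraries, 388 were over 1.5-fold higher and 360 lower, so this discrepancy depends on the scaling. Exchanged labels would leave 56 over 1.5-fold higher as deposited, more than the study counted. The libraries are called control and iFIRKO as labelled, and which of them came from which genotype could not be settled from the files. If the labels were exchanged, every direction below would turn, and the ratios of the 9 members, 1.05 to 2.74 as labelled, would run from 0.954 down to 0.366.

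In animals a miRNA is cut from a hairpin precursor as a duplex of a 5p and a 3p arm. One arm, the guide, is usually kept in the silencing complex and pairs with mRNAs through its seed, whereas the other, the passenger, is mostly degraded. miR-103 and miR-107 lie in introns of the pantothenate kinase genes, whose enzymes start coenzyme A synthesis, and they are known to lower insulin sensitivity in liver and adipose tissue, with caveolin-1 as a target. miR-33 lies in an intron of Srebf2, the gene of the transcription factor SREBP-2 that drives cholesterol synthesis, and it represses the cholesterol exporter Abca1. miR-802 is known from liver, kidney and pancreas, rises in obese liver and impairs glucose handling there.

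The mature sequences are shown because they decide which of these miRNAs can be told apart by sequencing. All 9 had a sequence in the RefSeq table (GRCm38.p6). They are printed 5′ to 3′ with the seed, bases 2 to 8, in capitals.
mmu-miR-103-3p: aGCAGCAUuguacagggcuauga
mmu-miR-107-3p: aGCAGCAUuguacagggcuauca
mmu-miR-103-1-5p: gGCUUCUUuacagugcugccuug
mmu-miR-103-2-5p: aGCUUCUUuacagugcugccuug
mmu-miR-107-5p: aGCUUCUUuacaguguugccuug
mmu-miR-33-5p: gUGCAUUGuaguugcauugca
mmu-miR-33-3p: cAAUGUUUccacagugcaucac
mmu-miR-802-5p: uCAGUAACaaagauucauccuu
mmu-miR-802-3p: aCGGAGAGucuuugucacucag
miR-103-3p and miR-107-3p share their seed and differ at 1 of 23 bases (G22C, with positions counted from the 5′ end and the base of the first-named miRNA given first). A read that ends before base 22 could therefore come from either of these guides. The 3 passenger arms of the family share another seed. miR-103-1-5p and miR-103-2-5p differ by G1A, and miR-103-2-5p and miR-107-5p differ by C16U, so a read of miR-103-1-5p or miR-103-2-5p that lacks its first base could come from either hairpin. How the authors assigned such reads is not stated, and the separate values of these near-identical miRNAs are uncertain to that extent. Among the 1596 of 1858 listed names that had a RefSeq sequence, none shared a seed with any arm of miR-33 or miR-802, and the other names were not compared.

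The hairpins are shown next, because miR-103-3p is made from 2 of them and cannot be assigned to one locus. The 5p and 3p arms are in capitals, in this order.
Mir103-1: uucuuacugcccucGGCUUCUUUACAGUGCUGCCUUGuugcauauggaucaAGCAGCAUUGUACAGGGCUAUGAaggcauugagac
Mir103-2: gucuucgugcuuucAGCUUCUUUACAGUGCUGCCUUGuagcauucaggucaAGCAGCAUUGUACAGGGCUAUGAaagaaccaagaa
Mir107: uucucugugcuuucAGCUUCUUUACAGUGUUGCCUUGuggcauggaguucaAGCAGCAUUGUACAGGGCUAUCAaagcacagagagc
Mir33: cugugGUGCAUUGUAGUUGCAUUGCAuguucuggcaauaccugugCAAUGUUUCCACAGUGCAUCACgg
Mir802: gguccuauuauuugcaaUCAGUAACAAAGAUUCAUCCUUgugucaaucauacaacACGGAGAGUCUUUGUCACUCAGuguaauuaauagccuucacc
Mir103-1 lies on chromosome 11 from 35782396 to 35782481 (GRCm38, plus strand), in intron 5 of the principal transcript of Pank3. Mir103-2 lies on chromosome 2 from 131288052 to 131288137 (plus strand), in intron 5 of Pank2. Mir107 lies on chromosome 19 from 34820687 to 34820773 (minus strand), in intron 5 of Pank1. Mir33 lies on chromosome 15 from 82198122 to 82198190 (plus strand), in intron 16 of Srebf2. These 4 hairpins have the strand of their host and overlap none of its annotated exons. Mir802 lies on chromosome 16 from 93369720 to 93369816 (plus strand) in no other annotated gene, 543.6 kb from Runx1 and 213.6 kb from Setd4, the nearest protein-coding genes.

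The control library held 3817902 counts and the iFIRKO library 2233498, a 1.71-fold difference in depth. Counts below 10 were not distinguished from each other in the deposited tables. The limit of 10 counts corresponds to 2.62 counts per 1000000 (CPM) in the control library and 4.48 CPM in the iFIRKO library, and all 9 miRNAs were above it in both. Together they made up 0.244% of the control library (exact 95% Poisson interval 0.239 to 0.249) and 0.273% of the iFIRKO library (0.266 to 0.280). All intervals given for levels and ratios are 95% intervals and cover counting error only, not the spread between mice. Levels are compared between miRNAs as CPM without correction for length, since each count is a whole mature miRNA of 21 to 23 bases. Whether different sequences entered the libraries equally well was not tested, which limits comparisons between miRNAs.

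The guide arms of the miR-103 and miR-107 family were by far the most abundant of the 9 miRNAs and had nearly the same share in both libraries. mmu-miR-103-3p had 5121 counts in the control library and 3140 in the iFIRKO library. These correspond to 1341 CPM (1305 to 1379) and 1406 CPM (1357 to 1456), and the intervals overlap. The ratio of iFIRKO to control was 1.05 (1.002 to 1.10). miR-107-3p had 3459 and 2310 counts, which are 906 CPM (876 to 937) and 1034 CPM (993 to 1077). Its ratio was 1.14 (1.08 to 1.20), a small difference with intervals that do not overlap. miR-103-3p ranked 62nd of 1847 in the control library and 56th in the iFIRKO library, and miR-107-3p ranked 80th and 70th.

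The guides of miR-33 and miR-802 were about an order of magnitude less abundant and had somewhat higher ratios. mmu-miR-802-5p had 356 counts (93.2 CPM, 83.8 to 103.5) in the control library and 269 counts (120 CPM, 106 to 136) in the iFIRKO library. The ratio was 1.29 (1.10 to 1.52), and the miRNA ranked 200th in both libraries. mmu-miR-33-5p had 269 counts (70.5 CPM, 62.3 to 79.4) and 231 counts (103.4 CPM, 90.5 to 118), a ratio of 1.47 (1.23 to 1.76). Both miRNAs were therefore higher in the iFIRKO library as deposited, beyond counting error and short of the study's 1.5-fold threshold. miR-802-5p was above miR-33-5p in the control library, whereas their intervals overlapped in the iFIRKO library.

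The passenger arms were scarce, between 12 and 55 counts. mmu-miR-802-3p had 41 counts (10.7 CPM, 7.71 to 14.6) in the control library and 55 counts (24.6 CPM, 18.6 to 32.1) in the iFIRKO library, a ratio of 2.29 (1.503 to 3.52). mmu-miR-107-5p had 25 counts (6.55 CPM, 4.24 to 9.67) and 40 counts (17.9 CPM, 12.8 to 24.4), a ratio of 2.74 (1.62 to 4.70). mmu-miR-103-1-5p had 14 counts (3.67 CPM, 2.005 to 6.15) and 22 counts (9.85 CPM, 6.17 to 14.9), a ratio of 2.69 (1.31 to 5.68). For these 3 arms the intervals of the libraries did not overlap, although those of miR-103-1-5p nearly met. mmu-miR-33-3p had 18 counts (4.71 CPM, 2.79 to 7.45) and 17 counts (7.61 CPM, 4.43 to 12.2), and its ratio of 1.61 (0.782 to 3.32) had an interval that included 1. mmu-miR-103-2-5p had 15 counts (3.93 CPM, 2.20 to 6.48) and 12 counts (5.37 CPM, 2.78 to 9.39), a ratio of 1.37 (0.584 to 3.13). A difference in these last 2 arms was not detectable at this depth. In the control library miR-802-3p and miR-107-5p had overlapping intervals, as had the 4 arms from miR-107-5p down to miR-103-1-5p, so their order is not established.

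**Figure D1:**
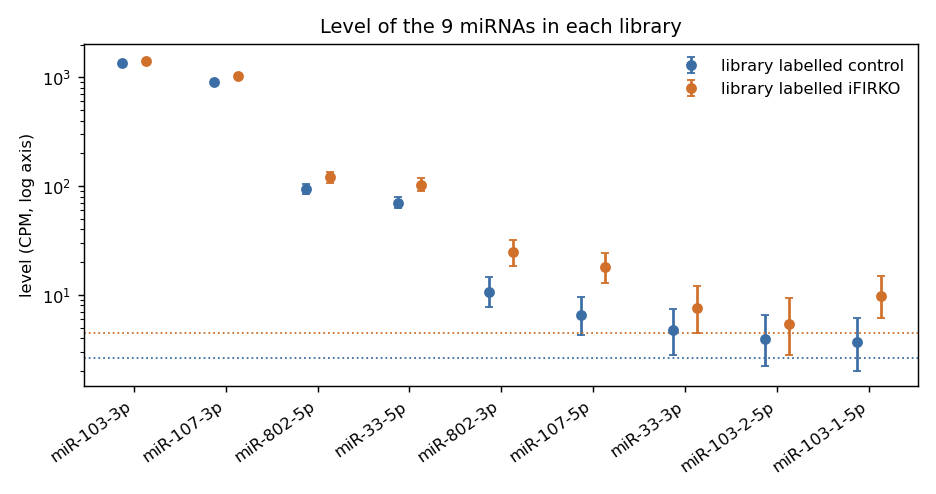
Level of each miRNA in CPM (log axis) in the control library (blue) and the iFIRKO library (orange), 1 library each, with exact 95% Poisson intervals as bars. Dotted lines mark the level of 10 counts in each library; all 9 miRNAs lie above the line of their library, and the guides of miR-103 and miR-107 lie at 906 CPM or more, while the 5 passenger arms lie at 24.6 CPM or less.

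All 9 ratios were above 1 as deposited, from 1.05 to 2.74. Of the 9 miRNAs, 4 were over 1.5-fold higher in the iFIRKO library (miR-107-5p, miR-103-1-5p, miR-802-3p and miR-33-3p), beside 66.3% of all 1847 miRNAs. None was over 1.5-fold lower, beside 3.03% of all miRNAs. The median log2 ratio was 0.55 for the 9 miRNAs and 0.88 for all miRNAs. All 4 miRNAs past 1.5-fold were passenger arms, and all 4 guides were below the threshold.

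Because ratios in these libraries fell with abundance, each member was set beside its abundance class. Among 1350 miRNAs whose mean count was 10 to 100, 76.7% were over 1.5-fold higher and the median log2 ratio was 1.01. The 5 passenger arms belong to this class, and with 4 past 1.5-fold and a median log2 ratio of 1.20 they lay close to it. Among 302 miRNAs whose mean count was 100 to 1000, 47% were over 1.5-fold higher and the median log2 ratio was 0.53. miR-33-5p (0.55) and miR-802-5p (0.37) lay near that median. Among 118 miRNAs whose mean count was over 1000 the median log2 ratio was -0.07 and 2.54% were over 1.5-fold higher, and miR-103-3p and miR-107-3p had log2 ratios of 0.07 and 0.19. Within this class 65.3% of miRNAs had a lower ratio than miR-103-3p and 79.7% a lower ratio than miR-107-3p. Over all 9, the share of the own class with a lower ratio ran from 16.1% (miR-103-2-5p) to 79.7%, so each ratio lay inside the range of miRNAs of similar abundance.

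**Figure D2:**
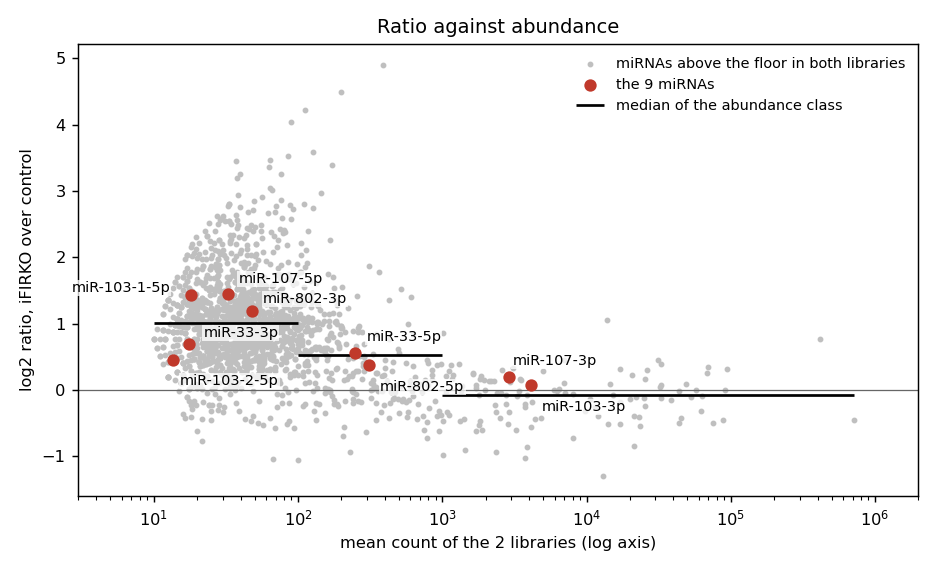
Log2 ratio of iFIRKO to control, as deposited, against the mean count of both libraries (log axis), for miRNAs with at least 10 counts in each (grey) and the 9 miRNAs (red). Black lines are the medians of all miRNAs of each abundance class (1.01, 0.53 and -0.07 from low to high abundance), and the red points fall with abundance as the lines do.

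The direction of the guides depended on the scaling between libraries. With the study's reference miR-148a-3p set to a ratio of 1, the ratios were 0.900 for miR-103-3p and 0.980 for miR-107-3p, and the other 7 miRNAs stayed above 1. With the median of ratios they were 0.872 and 0.949. With TMM scaling, which lowers all log2 ratios by a shift of 0.85, miR-103-3p (0.580) and miR-107-3p (0.632) were over 1.5-fold lower, as were 19.5% of all miRNAs. miR-107-5p (1.51) then remained over 1.5-fold higher, as were 21% of all miRNAs, and 6 of the 9 miRNAs were below 1. The order of the 9 ratios does not depend on the scaling, since each scaling multiplies all of them by 1 factor.

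**Figure D3:**
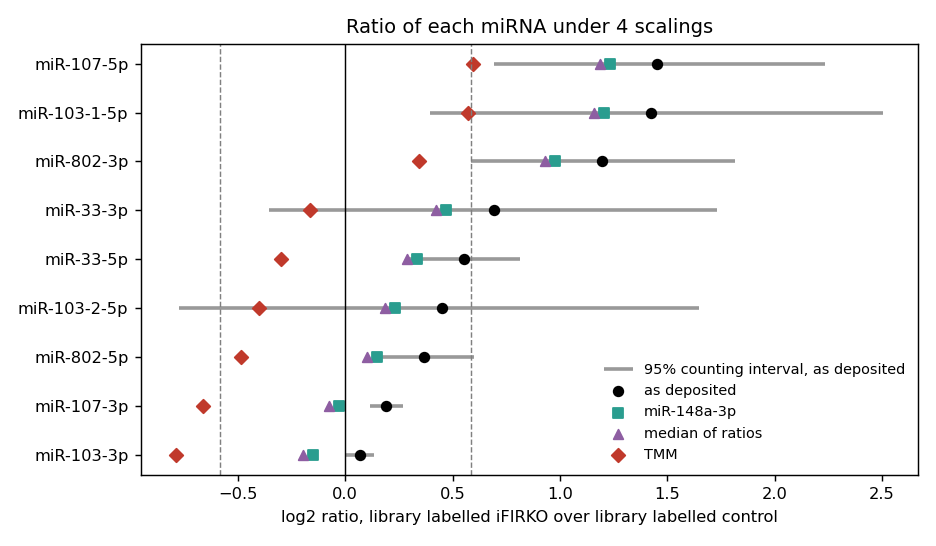
Log2 ratio of each miRNA under the deposited scale and 3 other scalings, ordered by the deposited ratio. Grey bars are 95% counting intervals of the deposited ratios and dashed lines mark 1.5-fold; the deposited ratios all lie right of 0, and with TMM scaling (red) 6 of 9 lie left of it.

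Ratios between miRNAs of the same library do not depend on that scaling, and they were examined next. Counts of miR-103-3p exceeded those of miR-107-3p 1.48-fold (1.42 to 1.55) in the control library and 1.36-fold (1.29 to 1.43) in the iFIRKO library. The share of miR-107-3p relative to miR-103-3p was thus 1.09-fold (1.02 to 1.17) higher in the latter. Reads that end before base 22 fit both guides, so these values also depend on how such reads were assigned, which is not stated. Relative to miR-103-3p, miR-33-5p was 1.40-fold (1.16 to 1.69) and miR-802-5p 1.23-fold (1.04 to 1.46) higher in the iFIRKO library. The median ratio as deposited was 1.44 in the abundance class of miR-33-5p and miR-802-5p and 0.952 in that of miR-103-3p. These shifts are therefore not particular to miR-33-5p and miR-802-5p. miR-33-5p and miR-802-5p did not separate from each other, with a change of 1.14-fold (0.891 to 1.45).

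The balance of the arms shifted toward the scarcer arm for miR-103, miR-107 and miR-802 beyond counting error. For miR-107, 0.723 passenger counts per 100 guide counts (0.467 to 1.07) were found in the control library and 1.73 (1.23 to 2.37) in the iFIRKO library, a change of 2.40-fold (1.41 to 4.13). For miR-103, whose guide comes from 2 hairpins, both passengers together gave 0.566 (0.379 to 0.814) and 1.08 (0.749 to 1.52) per 100 guide counts, a change of 1.91-fold (1.13 to 3.26). The shift was 2.56-fold (1.25 to 5.42) for miR-103-1-5p and 1.30-fold (0.557 to 2.99) for miR-103-2-5p taken alone. For miR-802, the 3p arm had 11.5 counts per 100 counts of the 5p arm (8.12 to 15.9) and 20.4 (15.0 to 27.4), a change of 1.78-fold (1.12 to 2.82). For miR-33, the values were 6.69 (3.91 to 10.8) and 7.36 (4.21 to 12.04), and the change of 1.10-fold (0.519 to 2.32) had an interval that included 1. The hairpins of miR-103 and miR-107 were hence far more one-sided than those of miR-33 and miR-802 in both libraries.

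**Figure D4:**
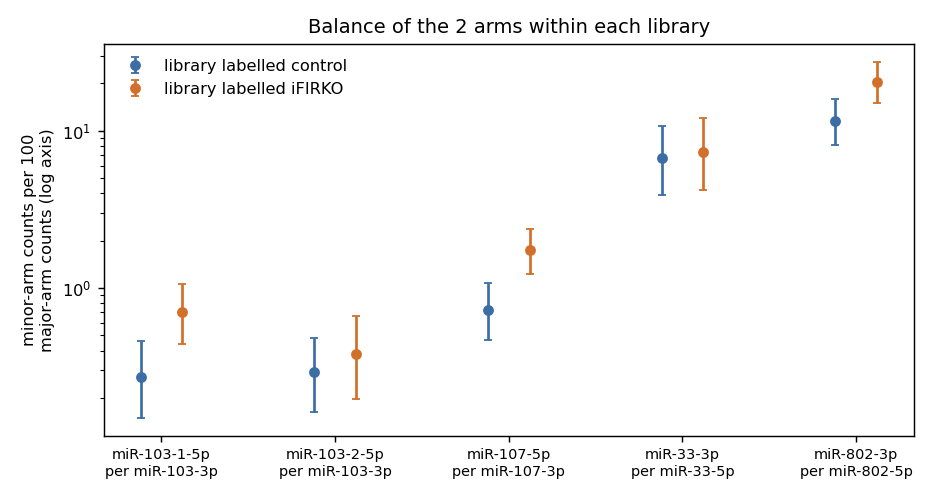
Counts of the scarcer arm per 100 counts of the more abundant arm (log axis) in the control library (blue) and the iFIRKO library (orange), with exact 95% intervals as bars. The values of miR-107 are 0.723 and 1.73 and those of miR-802 are 11.5 and 20.4, while the bars of miR-33 and miR-103-2-5p overlap widely.

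Other hairpins shifted in the same direction where the arms were as unequal. These sets were formed after the values of the members had been seen. Hairpins with an arm under 10 counts in either library were left out. That limit is 2.62 CPM in the control library and 4.48 CPM in the iFIRKO library, so scarce arms were not kept evenly. The effect of this on the shares below was not tested. Among 36 other hairpins with a mean count of at least 1000 for the major arm and under 100 for the minor arm, the minor arm was relatively higher in iFIRKO in 32 (88.9%), with a median change of 1.61-fold and quartiles of 1.24 and 1.89. miR-103 and miR-107 belong to this kind of hairpin. miR-107 (2.40) lay above the upper quartile, although its interval reached below it. For miR-103 the summed passengers (1.91) were at that quartile with an interval that spanned both quartiles, and miR-103-2-5p alone (1.30) was below the median. Among 158 other hairpins with at least 100 and under 100 counts, respectively, the minor arm was relatively higher in iFIRKO in 110 (69.6%), with a median of 1.28-fold and quartiles of 0.930 and 1.81. miR-33 and miR-802 lay between these quartiles. Over all 607 other hairpins with both arms above 10 counts, the minor arm was relatively higher in iFIRKO in 52.9%.

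The bases of the guide shared with the miR-15/16 family gave a further comparison. Bases 1 to 7 of miR-103-3p are identical to the seed of miR-16-5p, which is shown here for that reason with its seed in capitals.
miR-16-5p: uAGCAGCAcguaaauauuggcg
The 6 bases AGCAGC begin at base 1, 2 or 3 of 13 of 1679 mature miRNAs in the RefSeq table (0.774%, read on the mature strand only). Of these, 11 are no arm of miR-103 or miR-107, and all 11 were above 10 counts in both libraries. Their ratios ran from 0.608 to 3.36, with 6 above 1 and 5 below, and a median log2 ratio of 0.16. With TMM scaling 2 of the 11 were above 1. The 3 past 1.5-fold upward (of all miRNAs, 66.3%) were scarce, namely miR-6419 (31 and 61 counts, ratio 3.36), miR-6342 (23 and 38 counts, 2.82) and miR-6353 (31 and 31 counts, 1.71). The 1 past 1.5-fold downward (of all miRNAs, 3.03%) was miR-15b-5p with 11932 and 4241 counts, a ratio of 0.608 (0.587 to 0.629). miR-16-5p, the most abundant miRNA of both libraries, had a ratio of 0.733 (0.730 to 0.736), and miR-322-5p had 7979 and 4596 counts and a ratio of 0.985 (0.949 to 1.02). Relative to miR-16-5p, miR-103-3p was 1.43-fold (1.37 to 1.496) and miR-107-3p 1.56-fold (1.48 to 1.64) higher in the iFIRKO library. Without these bases, miR-33-5p was 2.003-fold (1.67 to 2.40) and miR-802-5p 1.76-fold (1.499 to 2.07) higher relative to miR-16-5p. The median ratio of miRNAs with a mean count over 1000, 0.952, was also above that of miR-16-5p. The rise relative to miR-16-5p is therefore not particular to miR-103-3p and miR-107-3p. With ratios from 0.608 to 3.36, the 11 miRNAs that share AGCAGC did not move together.

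Another 24 miRNAs known to act on insulin signalling or on cholesterol and lipid metabolism were taken as the wider pathway. All 24 were above 10 counts in both libraries, and 3 were over 1.5-fold higher (66.3% of all miRNAs) and 1 over 1.5-fold lower (3.03% of all miRNAs), with a median log2 ratio of 0.01 (0.88 for all miRNAs). Most of the 24 had a mean count over 1000. In that class the median log2 ratio was -0.07 and 2.54% were over 1.5-fold higher, so the list lay near miRNAs of similar abundance. With TMM scaling 1 of the 24 was above 1. The most abundant of them, miR-122-5p, is also past 1.5-fold upward and is given with the liver miRNAs. Of the miRNAs past 1.5-fold that are known to target Abca1 as miR-33 does, miR-758-3p had 27 and 59 counts, a ratio of 3.74 (2.33 to 6.13), whereas miR-144-3p, one of the miRNAs that put the labels in doubt, had 1566 and 464 counts, a ratio of 0.506 (0.456 to 0.562). These were the highest and the lowest ratio of the 24. miR-96-5p, which is known to repress the HDL receptor gene Scarb1, had 54 and 51 counts and a ratio of 1.61 (1.08 to 2.41). miR-223-3p, an abundant myeloid miRNA that also acts on cholesterol uptake, had a ratio of 0.799 (0.790 to 0.809). miR-29a-3p, an insulin-responsive miRNA, had a ratio of 1.27 (1.25 to 1.28). The direction thus differed between miRNAs assigned to the same pathway, with 13 of the 24 above 1 and 11 below as deposited. The scarce miR-758-3p and miR-96-5p belong to the class with a mean count of 10 to 100, of which 76.7% were over 1.5-fold higher.

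Markers of other sources moved between the libraries as well. miR-122-5p, the main hepatocyte miRNA, had a ratio of 1.71 (1.70 to 1.71), and the 4 liver miRNAs were all higher as deposited and all lower with TMM scaling. They summed to 12.1% of the control library and 20.2% of the iFIRKO library. Relative to miR-122-5p, miR-802-5p was lower in the iFIRKO library, with a change of 0.757-fold (0.644 to 0.890), and miR-33-5p changed 0.860-fold (0.718 to 1.03). However, miR-122-5p had the highest ratio of the liver miRNAs. The ratios of miR-122-3p (1.35), miR-192-5p (1.36) and miR-194-5p (1.37) lay inside the interval of miR-802-5p (1.10 to 1.52). The median ratio in the abundance class of miR-802-5p and miR-33-5p, 1.44, was also below that of miR-122-5p. All 7 erythroid miRNAs, from Mir144, Mir451a and Mir486 with its antisense copy, were lower in the library labelled iFIRKO under each scaling tried, and these include the miRNAs that put the labels in doubt. They summed to 4.75% and 3.22% of the libraries, and 4 were past 1.5-fold downward as deposited, beside 3.03% of all miRNAs. The 6 adipocyte miRNAs summed to 0.229% and 0.245%, with 3 higher, 3 lower, and miR-335-5p past 1.5-fold downward (of all miRNAs, 3.03%). The part of these sources in the ratios of the 9 miRNAs was not tested.

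For each of the 9 miRNAs, the 3 other miRNAs nearest in log2 CPM in both libraries were looked up. miR-103-3p was nearest to miR-152-3p (4899 and 3064 counts, at a distance of 0.07 on the log2 scale), followed by miR-10b-5p and miR-140-5p. miR-107-3p was nearest to miR-339-5p (3616 and 2298 counts, distance 0.06), followed by miR-423-5p and miR-574-3p. miR-802-5p was nearest to miR-99b-3p (362 and 281 counts), then to miR-542-5p and miR-1306-5p, and miR-33-5p was nearest to miR-6986-3p (261 and 242 counts), then to miR-214-3p and miR-3062-5p. Among the passenger arms, identical counts were found for miR-103-1-5p and miR-7646-5p, for miR-103-2-5p and miR-491-3p, for miR-107-5p and miR-302b-3p, and for miR-33-3p and both miR-669b-5p and miR-7057-3p. miR-802-3p was nearest to miR-7013-3p (40 and 55 counts). With 2 libraries such likeness is a description of 2 values for each miRNA.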

How the data were processed

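Total RNA of serum EVs was isolated with a miRNeasy Micro Kit, and QIAseq miRNA libraries were run on a NextSeq500. From an analysis at the GeneGlobe Data Analysis Center, the authors deposited 1 normalized signal per miRNA. The submitters' processing notes name mm10, the same assembly as GRCm38. The aligner, the miRNA annotation release and the use of molecular identifiers are not given in the sources used here. In both libraries 100% of the deposited signal values came within 0.05 of a whole count when multiplied by 1 constant per library, which was taken as depth. The listed miRNAs held 99.3% and 99.1% of it. No count from 2 to 9 occurred, and the lowest value (76 and 35 miRNAs) was read as a count under 10.

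Ratios were formed on the deposited scale with no pseudocount and the study's 1.5-fold threshold. Ratio intervals are Clopper-Pearson limits of 1 library's share of both counts, level intervals are exact Poisson, and changes of arm balance have exact conditional limits of the odds ratio (scipy 1.17.1, Python 3.11.15). TMM factors came from edgeR 4.0.16 in R 4.3.3. The interval script was tested on simulated data. The alternatives were 4 other scalings, 1 CPM added, the lowest values set to 10 counts, a 2-fold threshold and filters at a mean count of 10 and 100.

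The 9 members and all lists were chosen with earlier results of these data known. From the lists, miRNAs past 1.5-fold and above 10 counts in both libraries and the 3 most abundant were named, with 3 nearest miRNAs for each member. Positions are from GENCODE M21, and sequences from RefSeq matched 1596 of the 1858 listed names.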

Additional observations from a re-analysis of the deposited data

How the results depend on the processing

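No paired analysis was possible because only 1 library represents a group, and for that reason none could be left out. With 1 CPM added, the ratios of all 9 members stayed within their counting intervals. Equal totals left them there too, but that scaling is a factor of only 0.998. Setting the lowest values to 10 counts could not change the members, which were all above that limit. With TMM scaling 1 member was over 1.5-fold higher instead of 4 and 2 were lower instead of 0, the median log2 ratio of the members was -0.30 instead of 0.55, and miR-33-3p (1.61 as deposited) reversed to 0.893. That median was 0.29 with the median of ratios and 0.28 at a mean count of at least 100, a filter that kept the 4 guides and left 0 members past 1.5-fold.

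Of the other 24 metabolic miRNAs, 3 were higher as deposited, and 1 was with the median of ratios, with TMM scaling, with miR-148a-3p as reference, at a 2-fold threshold and with a mean count limit of 100. In place of 1 lower miRNA there were 4, 16 and 3 under these 3 scalings and 0 at 2-fold. Of the 11 miRNAs with AGCAGC, 0 instead of 3 were higher once scarce ones (mean count under 100) were left out, and in place of 1 lower there were 4, 8 and 2 under the same 3 scalings and 0 at 2-fold. These shifts follow from 1 factor applied to every miRNA, a stricter threshold or fewer miRNAs. The arm balances and the ratio of miR-103-3p to miR-107-3p stayed within their intervals with 1 CPM added. Lowest values set to 10 counts could not change the arm balances, for the reason given above. Depth limits the passenger arms most, since they rest on 12 to 55 counts.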
